A study of Rattus norvegicus with 16 samples.

Results

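The genes described are 9 scaffold genes of the excitatory postsynapse: Shank1, Shank2 and Shank3, Homer1, Homer2 and Homer3, the PSD-95 gene Dlg4, its relative Dlg2 (PSD-93), and Dlgap1, also called GKAP or SAPAP1. They were chosen by symbol, with earlier results of these data known, among them the Shank values of HF_PBS and HF, and where a symbol has several loci the one with the highest mean over the 16 libraries was taken. That makes 9 of the 28168 loci in the table and 9 of the 14824 that were tested. Because of that choice, the counts of called members below describe these libraries and are no independent evidence about the scaffold. All 9 symbols were found, 8 of them at 1 locus only, and Shank3 at 2 loci.

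Male Sprague-Dawley rats, 11 weeks old at the start, gave frontal cortex for RNA sequencing in 4 groups of 4 libraries. Animals of the chow group were fed chow for 7 weeks, and those of HF were fed high fat food for the same time. HF_PBS rats ate the high fat diet and received injections of PBS, the vehicle, into the abdomen (i.p.) for 10 days. HF_5AzaD rats ate the high fat diet and received 5-AzaD dissolved in PBS by the same route for 10 days; 5-AzaD is 5-aza-2′-deoxycytidine, which blocks the enzymes that methylate DNA. No group was injected on chow diet, so every injected library also has the high fat diet. The letters HFD mean diet alone in the series' design text but stand in the titles of the PBS samples. Grouping here went by each sample's stated treatment. If HF and HF_PBS were exchanged, the values given for HF_PBS against chow would be those of the diet. HF_5AzaD against HF, with 4 of the 9 genes and 2112 loci called, would then compare the drug with its vehicle. The split into injected and uninjected libraries used below would not hold either. Nothing in the labels says that each library is a separate rat. The p-values therefore speak only of how these samples vary, and that variation may be technical. The 8 injected libraries may share handling or preparation steps that the labels do not record, and such steps and the injections cannot be told apart.

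The postsynaptic density is a protein layer under the membrane of excitatory synapses, most of them on dendritic spines. PSD-95 lies next to the membrane and holds NMDA receptors, AMPA receptor partners and adhesion proteins. Dlgap proteins bind PSD-95 on one side and Shank on the other, and Shank binds Homer, which reaches metabotropic glutamate receptors and calcium stores. Shank and Homer together form the deep lattice of the layer, and changes in SHANK genes are known from autism and intellectual disability in people.

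5-AzaD acts on methylation of cytosines in CG pairs, so the stretches before the start sites of 3 genes are shown with each CG in capitals. Shank3 was called in all 4 comparisons of injected with uninjected groups, Dlg4 in 1 of them and Homer1 in none. Each is the 250 bases upstream of the start in RefSeq on build GRCr8, plus strand, read 5′ to 3′: Shank3 at chr7:122448073-122448322, Homer1 at chr2:26278762-26279011 and Dlg4 at chr10:55239534-55239783.
Shank3: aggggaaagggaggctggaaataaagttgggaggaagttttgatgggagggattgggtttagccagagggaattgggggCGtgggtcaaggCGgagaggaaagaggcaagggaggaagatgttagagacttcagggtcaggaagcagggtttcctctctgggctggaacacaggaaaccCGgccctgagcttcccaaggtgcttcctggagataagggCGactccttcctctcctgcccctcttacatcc
Homer1: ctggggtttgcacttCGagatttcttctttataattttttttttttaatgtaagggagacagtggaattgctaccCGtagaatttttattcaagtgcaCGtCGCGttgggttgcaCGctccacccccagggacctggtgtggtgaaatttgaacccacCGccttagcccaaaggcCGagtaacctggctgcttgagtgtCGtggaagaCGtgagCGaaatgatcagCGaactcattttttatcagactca
Dlg4: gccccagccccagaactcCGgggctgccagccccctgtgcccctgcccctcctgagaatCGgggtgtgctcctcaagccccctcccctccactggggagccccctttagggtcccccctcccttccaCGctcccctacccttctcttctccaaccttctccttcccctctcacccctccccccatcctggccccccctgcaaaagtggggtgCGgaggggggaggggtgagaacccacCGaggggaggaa
The Shank3 stretch holds 4 CG pairs, and 62.6% of 33469 RefSeq windows of that length hold at least as many. Homer1 has 12, a count reached by 31.5% of windows, and Dlg4 has 5, reached by 55.3%, where the median window has 5. CG reads the same on both strands, so 1 search covers both. Of the 9 genes 6 had a window in the RefSeq table, and Shank1, Shank2 and Homer2 had none. Methylation was not analysed here, and whether CG counts go with the calls was not tested. Of the comparisons counted above, HF_PBS against HF and HF_PBS against chow involve no 5-AzaD.

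Levels are given in FPKM, a count of sequenced fragments divided by transcript length and by library size, so levels of different genes can be set side by side per length. In chow, Dlg4 was at 319 ± 11.7 FPKM (mean ± SD, n = 4, as for all group values). Shank1 followed at 102 ± 9.85, Dlgap1 at 86.1 ± 4.66 and Dlg2 at 66.4 ± 3.68. Homer1 (51.7 ± 4.26) and Shank3 (50.1 ± 3.34) came next, and Homer3 (6.22 ± 0.597), Homer2 (3.72 ± 0.730) and Shank2 (3.08 ± 0.670) were at the low end. In that order 3 pairs of neighbours overlapped between libraries: Shank1 with Dlgap1, Homer1 with Shank3, and Homer2 with Shank2. In HF_PBS the order around the middle was different: Shank1 at 50.0 ± 14.8, Dlg2 at 49.7 ± 8.04 and Dlgap1 at 46.2 ± 19.0 FPKM overlapped in their libraries, and Shank2 was at 0.717 ± 0.262.

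**Figure D1:**
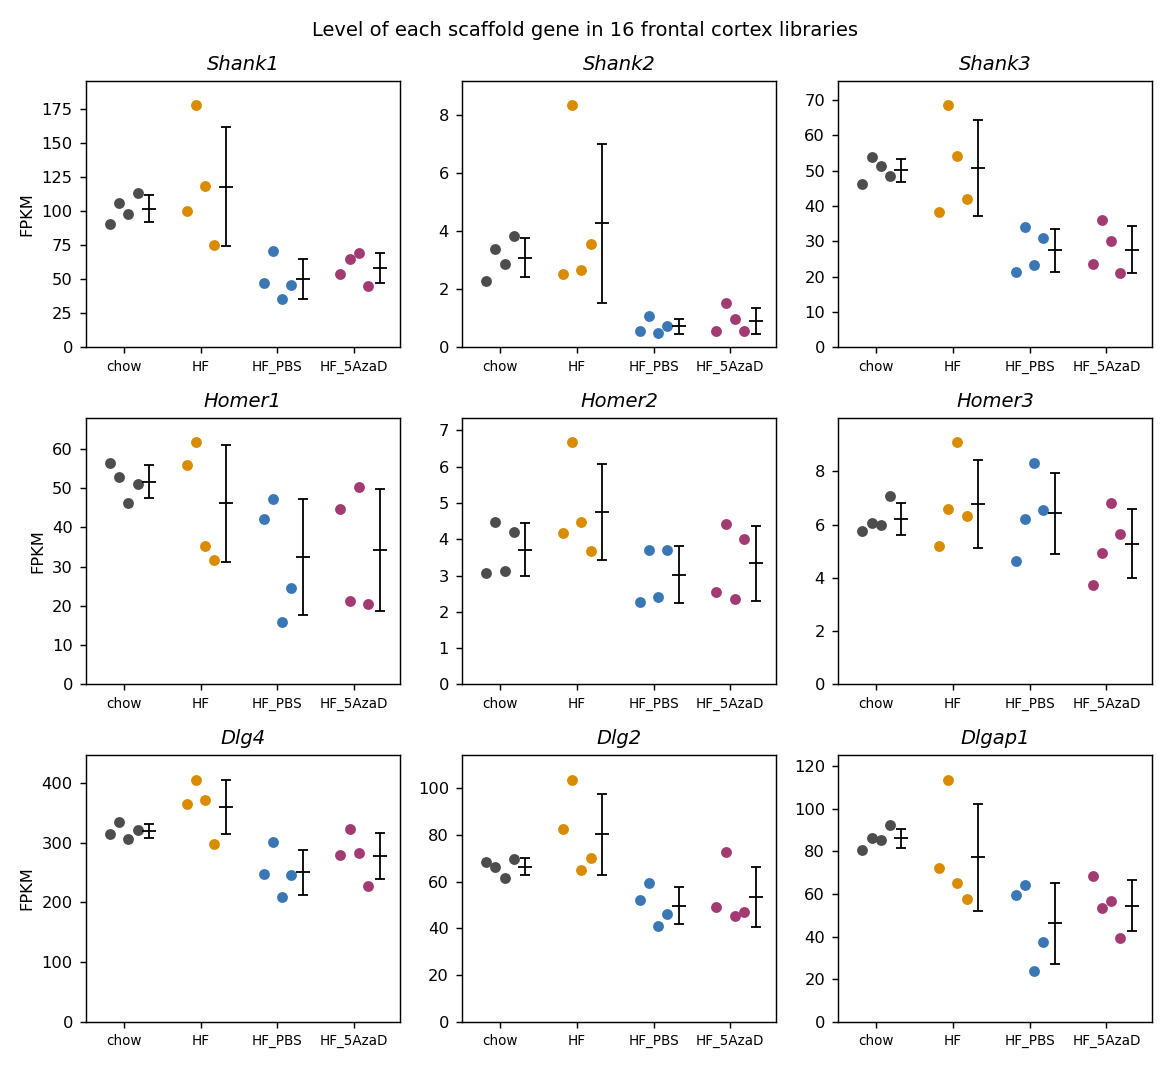
FPKM of each of the 9 genes (vertical axis from 0, a scale of its own per gene) in the 4 libraries of each group (points), with the group mean and SD (black). For Shank1, Shank2 and Shank3 all 8 injected libraries lie below all 8 uninjected ones, while the Homer2 and Homer3 groups overlap. The share of all loci with that separation was not counted.

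The libraries differed in ways that touch these genes. Relative depth, estimated from the smallest steps between low FPKM values, was 38.4% to 100% in chow (with chow 2 as 100%), 30.2% to 36.4% in HF, 32.5% to 42.6% in HF_PBS and 34.6% to 44.4% in HF_5AzaD. So the injected groups overlap HF in depth. The absolute depth is unknown. A set of 11 striatum markers, genes of the region under the frontal cortex, summed to 225.8 to 419.6 FPKM in 12 libraries, but to 1434 in HF 8, 779 in HF_PBS 2, 847 in HF_PBS 3 and 1056 in HF_PBS 4. The 7 excitatory neuron markers were above 0 in every library, with sums from 990.1 in HF_PBS 3 to 4388 in HF_5AzaD 3, and no upper or deep cortical layer marker tested was at 0 in any library. HF 6 was the highest of the 16 libraries for 8 of the 9 genes, and HF_PBS 3 the lowest for 6 of them. In bulk tissue, fewer cells of a type and less RNA per cell cannot be told apart.

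All differences below come from limma on log2(FPKM + 0.5), with adjusted p-values by Benjamini-Hochberg over all 14824 loci tested, and a gene is called at an adjusted p under 0.05. The diet alone was addressed by HF against chow. None of the 9 genes was called, and 0.0% of all loci were, with 1020 loci at an unadjusted p under 0.05 (limma). The log2 differences of the 9 genes ran from -0.21 (Homer1) to 0.30 (Homer2), with adjusted p from 0.766 to 0.995. For Shank1, at 90.5, 106, 98.04 and 113 FPKM in chow 1 to 4 and 100, 178, 119 and 74.9 in HF 5 to 8, the difference was 0.14 with a 95% interval of -0.37 to 0.65. The HF libraries enclosed the chow libraries on both sides. For Shank3 the difference was -0.01 with an interval of -0.44 to 0.41, and for Dlg4 0.17 with -0.11 to 0.44.

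What 5-AzaD added to the vehicle was addressed by HF_5AzaD against HF_PBS. Here too no member was called, and 0.0% of loci were, with 1100 at an unadjusted p under 0.05 (limma). Of the 9 differences, 8 were above 0, from 0.01 for Shank3 to 0.31 for Dlgap1, and Homer3 was at -0.26, with adjusted p from 0.825 to 0.997. The median over the members was 0.11 and over all loci 0.01. Shank1 had a difference of 0.24 with an interval of -0.27 to 0.75, Shank2 0.18 with -0.49 to 0.85, and Shank3 0.01 with -0.42 to 0.43. A p-value that misses the threshold does not show that both injections left the genes at one level.

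The 3 Shank genes, whose proteins are the master scaffolds that join Dlgap to Homer, were lower in both injected groups than in both uninjected ones. Shank1 was at 47.1, 70.8, 35.9 and 46.1 FPKM in HF_PBS 1 to 4 and at 53.9, 64.6, 69.5 and 45.1 in HF_5AzaD 3, 5, 6 and 7. Every one of these lay under the lowest uninjected library, HF 8 at 74.9. From HF (118 ± 43.9) to HF_PBS (50.0 ± 14.8) Shank1 fell by 1.203 on the log2 scale (SE 0.24, adjusted p = 0.00468), a 2.30-fold difference. Against chow (102 ± 9.85) HF_PBS was lower by a log2 difference of -1.06 (adjusted p = 0.00724).

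Shank2, the least abundant of the Shank genes here, was at 2.27, 3.38, 2.85 and 3.82 FPKM in chow and at 2.52, 8.32, 2.66 and 3.54 in HF. It was at 0.556, 1.08, 0.495 and 0.740 in HF_PBS and at 0.564, 1.53, 0.986 and 0.558 in HF_5AzaD. No injected library reached the lowest uninjected one, chow 1 at 2.27. The drop from HF to HF_PBS was the largest of the 9 genes, -1.84 (SE 0.31, adjusted p = 0.00291). The added 0.5 FPKM compresses a gene this low: with 0.1 FPKM added instead the difference was -2.29, and with 1 FPKM -1.51. Its means in both injected groups (0.717 and 0.908) are under the filter of 1 FPKM, so Shank2 passed that filter through the uninjected groups. It was still called with no filter, at adjusted p of 0.00507 in HF_PBS against HF and 0.00806 against chow.

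Shank3, the gene deleted in Phelan-McDermid syndrome in people, was at 46.4, 54.0, 51.4 and 48.5 FPKM in chow and 38.3, 68.5, 54.2 and 42.1 in HF. The HF_PBS libraries were at 21.4, 34.2, 23.4 and 30.9 and the HF_5AzaD libraries at 23.7, 35.9, 30.1 and 21.0. The highest injected library, HF_5AzaD 5, stayed under the lowest uninjected one, HF 5. Shank3 was the most even of the 3: its 4 differences between injected and uninjected groups were -0.86, -0.88, -0.87 and -0.86, about 1.8-fold, with adjusted p from 0.00761 to 0.0172. The second locus of the Shank3 symbol, with a mean of 2.62 FPKM, did otherwise. It was at 2.24 to 3.47 FPKM in chow, 2.27 to 3.55 in HF, 1.29 to 2.39 in HF_PBS and 2.19 to 4.62 in HF_5AzaD. That locus was called lower in HF_PBS against HF (-0.68, adjusted p = 0.0313), while in HF_5AzaD against chow its difference was 0.12 (adjusted p = 0.722).

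HF_5AzaD against chow shares no library with HF_PBS against HF, though both take their spread from the fit over all 4 groups. Shank1 differed by -0.82 (SE 0.24, adjusted p = 0.0352), Shank2 by -1.38 (SE 0.31, adjusted p = 0.0158) and Shank3 by -0.87 (SE 0.20, adjusted p = 0.0163). Against HF, HF_5AzaD differed by -0.96 for Shank1 (adjusted p = 0.0213) and -1.66 for Shank2 (adjusted p = 0.00877). Against chow, Shank1 lost its call when any 1 chow library, HF_5AzaD 3 or HF_5AzaD 7 was left out (adjusted p from 0.0539 to 0.12) or with no filter on the mean (0.0509), and all 3 lost theirs without HF_5AzaD 7 (0.0601 to 0.12). In HF_5AzaD against HF, Shank1 and Shank3 were not called without HF 6 or without HF_5AzaD 7 (adjusted p from 0.064 to 0.0771), and with only these 2 groups in the fit none of the 3 was (0.0644 to 0.0745). All 3 Shank calls in HF_PBS against HF and against chow held when any 1 library was left out.

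Across the 9 genes, 5 were called lower in HF_PBS against HF, where 13.2% of all loci were called lower and 10.7% higher. HF_PBS against chow called 4 of 9 lower, beside 15.7% of loci lower and 12.4% higher. HF_5AzaD against chow called 3, beside 9.11% lower and 7.18% higher, and HF_5AzaD against HF called 4, beside 7.64% lower and 6.61% higher. None of the 9 was called higher in any comparison. All 4 libraries of the first group lay below all 4 of the second for 4, 6, 4 and 3 of the 9 genes in those comparisons, in that order. Over all loci that share was 11.9%, 19.1%, 14.8% and 8.78%. How many of all loci have every injected library under every uninjected one, as the Shank genes do, was not counted. The median difference of the 9 was -0.68, -0.79, -0.68 and -0.49, where all loci had medians of 0.01, 0.01, 0.00 and 0.02.

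**Figure D2:**
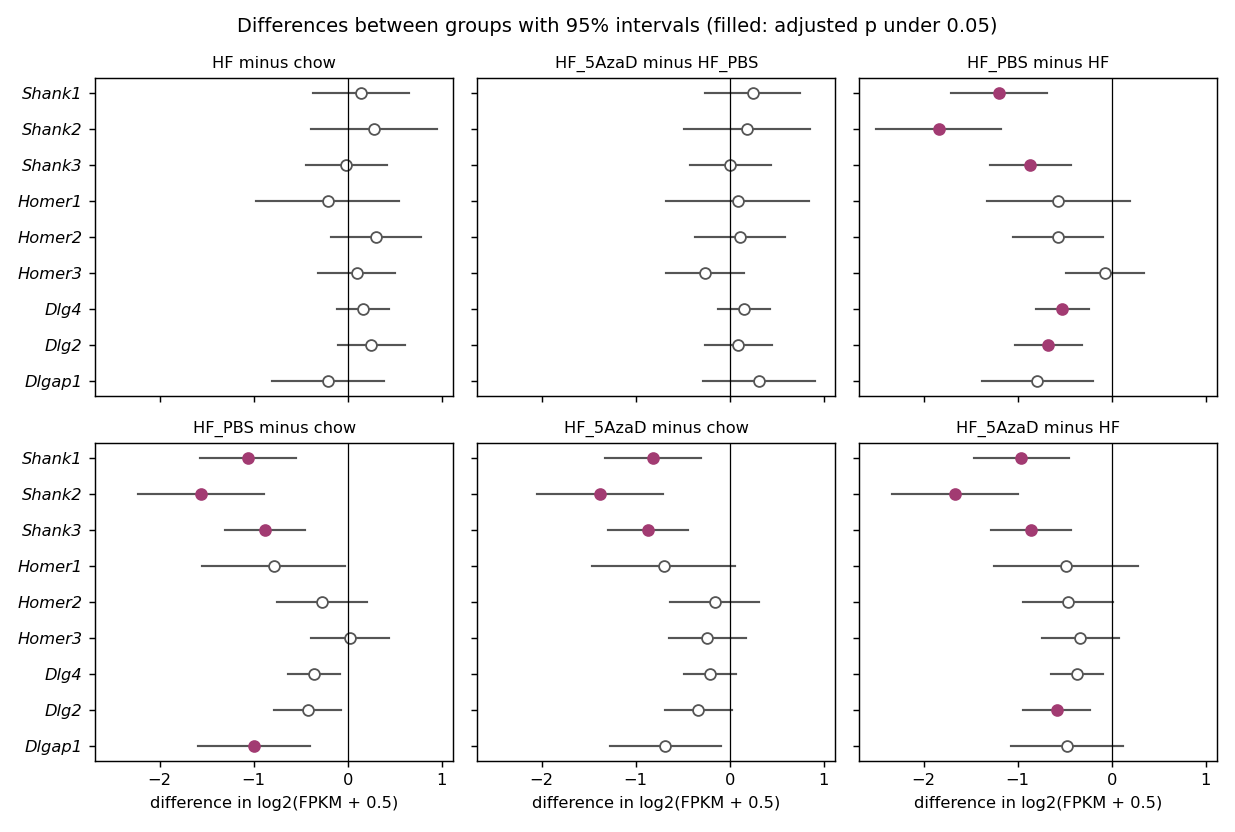
Difference in log2(FPKM + 0.5) between groups (horizontal axis) for the 9 genes in 6 comparisons, with 95% intervals; filled points have an adjusted p under 0.05. All 3 Shank genes are filled in the 4 comparisons of an injected with an uninjected group, and no gene is filled in HF minus chow or HF_5AzaD minus HF_PBS.

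Of the PSD-95 group, Dlg4, which encodes the core scaffold itself, was at 315.5, 334, 306 and 321 FPKM in chow, and at 365.5, 406, 371 and 298 in HF. It was at 247, 301, 209.5 and 245.5 in HF_PBS and at 280, 323, 282 and 228 in HF_5AzaD. The injected and uninjected libraries overlapped, since HF 8 was under HF_PBS 2. Dlg4 was called in HF_PBS against HF alone (-0.52, SE 0.13, adjusted p = 0.0121), a 1.44-fold difference, and with only those 2 groups in the fit its adjusted p was 0.0567. Against chow HF_PBS was at -0.36 (adjusted p = 0.0515, and 0.0449 after quantile normalization), and HF_5AzaD was at -0.21 against chow (adjusted p = 0.263). HF_5AzaD against HF was at -0.37 (adjusted p = 0.0667), and it was called after quantile normalization (-0.50, adjusted p = 0.0345), without HF 8 (0.0464) and without HF_5AzaD 5 (0.0398).

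Dlg2, which encodes a PSD-95 relative that also binds NMDA receptors, was called in HF_PBS against HF (80.3 ± 17.3 to 49.7 ± 8.04 FPKM, -0.68, adjusted p = 0.0119) and in HF_5AzaD against HF (-0.59, adjusted p = 0.033). All 4 HF_PBS libraries (40.9 to 59.5) lay under all HF libraries (65.0 to 104). In HF_5AzaD, library 5 stood at 72.5 FPKM and the other 3 at 45.2 to 49.2. Without HF 5, HF 6, HF_5AzaD 3, HF_5AzaD 6 or HF_5AzaD 7 the call in HF_5AzaD against HF was lost (adjusted p from 0.0605 to 0.119). Dlg2 spans a very long stretch of the genome, and its isoforms cannot be told apart in values per locus.

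Dlgap1, the adaptor between PSD-95 and Shank, was at 80.9, 86.2, 85.2 and 92.2 FPKM in chow and at 59.4, 64.2, 23.7 and 37.3 in HF_PBS. The groups did not overlap, and the difference was -0.99 (SE 0.28, adjusted p = 0.0187). That call rested on HF_PBS 3 and HF_PBS 4, and adjusted p was 0.0501 and 0.06 without each. HF_PBS against HF gave -0.79 (adjusted p = 0.0519, and 0.038 to 0.0454 with a 5 FPKM filter or another scaling), where HF spread from 57.5 to 114 FPKM. HF_5AzaD was at 54.4 ± 12.03 FPKM, with differences of -0.68 from chow (adjusted p = 0.097) and -0.48 from HF, neither called. All its libraries (39.3 to 68.5) lay under the chow libraries. The difference from chow was called with only 2 groups in the fit (0.0241) and without the 3 libraries richest in striatum markers (0.0281). It was not called when any 1 library of either group was left out (0.0783 to 0.273).

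None of the Homer genes, whose proteins link Shank to metabotropic receptors, was called in any comparison. Homer1 was even in chow, at 56.5, 52.9, 46.2 and 51.1 FPKM. Every high fat group was split: HF 5 to 8 were at 56.0, 61.6, 35.3 and 31.7, HF_PBS 1 to 4 at 42.2, 47.1, 15.9 and 24.4, and HF_5AzaD 3, 5, 6 and 7 at 44.7, 21.3, 50.4 and 20.5. In each of the 3 groups 2 libraries stood clear of the other 2. The intervals were wide, as in HF_PBS against chow, -0.79 (adjusted p = 0.107, 95% interval -1.55 to -0.03), and in HF_5AzaD against chow, -0.70 (adjusted p = 0.171, 95% interval -1.46 to 0.06). The long Homer1 forms cross-link, and the short Homer1a form, which neuronal activity induces, uncouples them. Values are per locus, so the forms cannot be told apart here, and which of them the locus covers is not stated.

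Homer2 and Homer3 encode long forms at lower levels. Homer2 was at 3.72 ± 0.730, 4.75 ± 1.32, 3.03 ± 0.791 and 3.34 ± 1.04 FPKM in chow, HF, HF_PBS and HF_5AzaD. Its difference in HF_PBS against HF was -0.57 (adjusted p = 0.0756, 95% interval -1.05 to -0.09). Homer3 was at 6.22 ± 0.597, 6.79 ± 1.65, 6.43 ± 1.51 and 5.28 ± 1.30 FPKM. In HF_PBS against HF, Homer3 had a difference of -0.07 with an interval of -0.48 to 0.34, the closest to 0 of the 9 genes. For Shank1 the whole interval of that comparison, -1.71 to -0.69, lay below the one of Homer3. It overlapped those of Homer1 (-1.33 to 0.19) and Homer2, and the Shank3 interval (-1.29 to -0.44) overlapped that of Homer3. Whether Shank and Homer genes differ in their response was not tested.

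Expressed as a percent of Dlg4 in the same library, a scale on which library scaling cancels, Shank1 was at 32.0 ± 5.72% in the 8 uninjected libraries and 20.3 ± 2.52% in the 8 injected ones, with ranges of 25.1% to 43.8% and 17.1% to 24.6% that did not overlap. For Shank2 the ranges were 0.690% to 2.05% and 0.201% to 0.472%, again apart. Shank3 overlapped, at 10.5% to 16.9% and 8.46% to 12.6%. Homer1 overlapped widely, at 9.52% to 17.9% and 6.58% to 17.9%, as did Dlg2, at 17.5% to 25.5% and 16.03% to 22.4%. A ratio within a library shows unequal change of its 2 genes and not which of them changed.

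**Figure D3:**
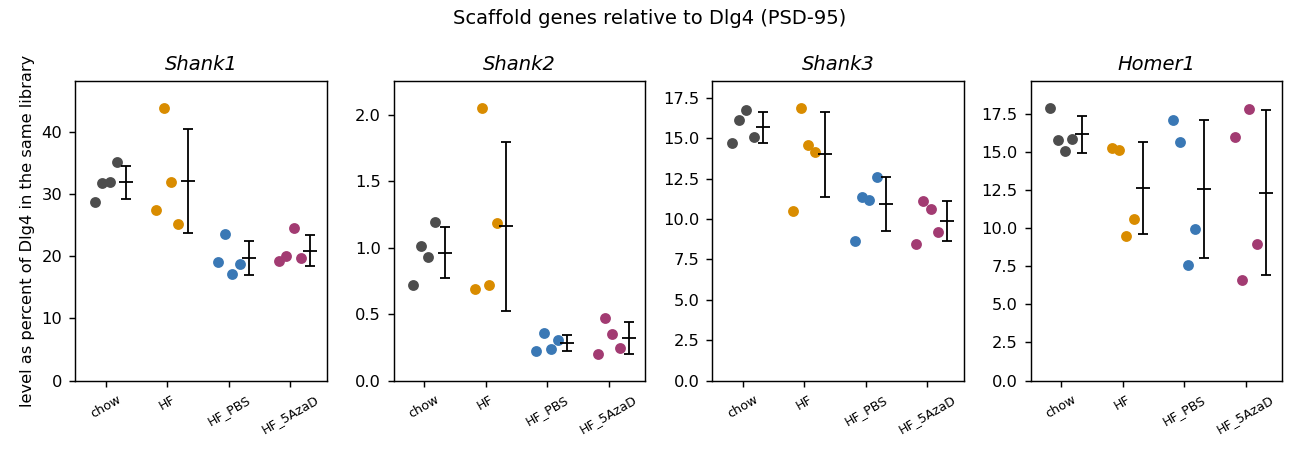
Level of Shank1, Shank2, Shank3 and Homer1 as a percent of the Dlg4 level in the same library (vertical axes from 0), by group, with points for libraries and the group mean and SD in black. Shank1 and Shank2 stand lower relative to Dlg4 in both injected groups, at 17.1% to 24.6% and 0.201% to 0.472%, and Homer1 does not separate.

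The libraries rich in striatum markers bear on the PBS comparisons. Leaving out HF 8, HF_PBS 3 and HF_PBS 4, a choice made after seeing the data, kept the Shank1 and Shank2 differences in HF_PBS against HF at -1.15 and -1.76 and Shank3 at -0.94, but with 2 HF_PBS libraries left none was called (adjusted p from 0.054 to 0.092), and only 7 of all loci were. The Dlg4 and Dlg2 calls were lost too, at -0.48 and -0.56 (adjusted p = 0.098 and 0.158). Dlgap1 moved more: its difference went from -0.99 to -0.47 against chow, which ended its call (adjusted p = 0.237), and from -0.79 to -0.39 against HF. Homer1 went from -0.79 to -0.21 against chow and from -0.57 to -0.15 against HF. Leaving out HF_PBS 2 as well left the lone HF_PBS 1, assumed to vary like the other groups. HF_PBS 1 had a striatum sum of 262.8, inside the range of HF 5 to 7 (232.1 to 283.5), and with it alone the Shank differences from HF were -1.44, -2.05 and -1.27 (adjusted p from 0.167 to 0.173). HF 8, with the highest striatum sum, was the lowest HF library for Shank1, Homer1, Homer2, Dlg4 and Dlgap1. It was not the lowest for Shank2, Shank3, Homer3 and Dlg2. The HF_5AzaD libraries had striatum sums of 225.8 to 374.7, beside 267.9 to 419.6 in chow. In HF_5AzaD against chow and against HF the Shank genes stayed called without these 4 libraries, with differences from -0.82 to -1.69 and adjusted p from 0.0193 to 0.0292.

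The excitatory neuron markers are given beside Homer1, whose groups were split. In HF_PBS 1 to 4 those markers summed to 3581, 2639, 990.1 and 2464 FPKM, beside Homer1 at 42.2, 47.1, 15.9 and 24.4. Both Homer1 and Shank1 (35.9) were lowest of the group in HF_PBS 3, where the sum was lowest. In HF_5AzaD 3, 5, 6 and 7 they summed to 4388, 1868, 3479 and 2059, beside Homer1 at 44.7, 21.3, 50.4 and 20.5. Neither Homer1 nor Shank1, at 53.9, 64.6, 69.5 and 45.1, followed the exact order of the sums there. HF_5AzaD 3 and HF_5AzaD 6, with the higher sums, did have the higher Homer1 values. In HF 5 to 8 the markers summed to 2703, 3010, 2594 and 1442, and Homer1, at 56.0, 61.6, 35.3 and 31.7, followed that order. The 14 oligodendrocyte markers summed to 13100 and 14030 FPKM in HF_PBS 3 and HF_PBS 4 and to 2432 to 7414 elsewhere. In HF_PBS against HF, 2 of 14 oligodendrocyte and 1 of 8 astrocyte markers were called higher, shares near the 10.7% of all loci. None of 10 microglia, 11 striatum, 9 deep layer and 6 upper layer markers was called. Of 9 GABAergic interneuron, 7 excitatory neuron and 8 endothelial and mural markers none was either, where 13.2% of all loci were called lower. In HF_5AzaD against chow, 3 of 10 microglia and 1 of 14 oligodendrocyte markers were called higher, beside 7.18% of all loci. There 1 of 6 upper layer markers was called lower, beside 9.11%. In HF_PBS against chow, 2 of 14 oligodendrocyte, 2 of 11 striatum, 3 of 8 astrocyte and 3 of 10 microglia markers were called higher. There 3 of 6 upper layer markers were called lower, beside 12.4% of all loci higher and 15.7% lower. In HF_5AzaD against HF, 1 of 11 striatum and 1 of 9 deep layer markers were called lower, beside 7.64% of all loci. There 1 of 6 upper layer markers was called higher, beside 6.61%. The striatum markers had median differences of 0.81 in HF_PBS against HF and 1.59 in HF_PBS against chow. Theirs were -0.07 in HF_5AzaD against chow and -0.95 in HF_5AzaD against HF, and the deep layer markers had -0.67 in the last of these. In the same order of comparisons the upper layer markers had medians of -0.51, -1.07, -0.49 and -0.20. The excitatory neuron markers had -0.43, -0.61, -0.31 and -0.30, and the oligodendrocyte markers 0.78, 0.71, -0.23 and -0.19. The part of cell makeup in the values of the 9 genes was not tested.

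**Figure D4:**
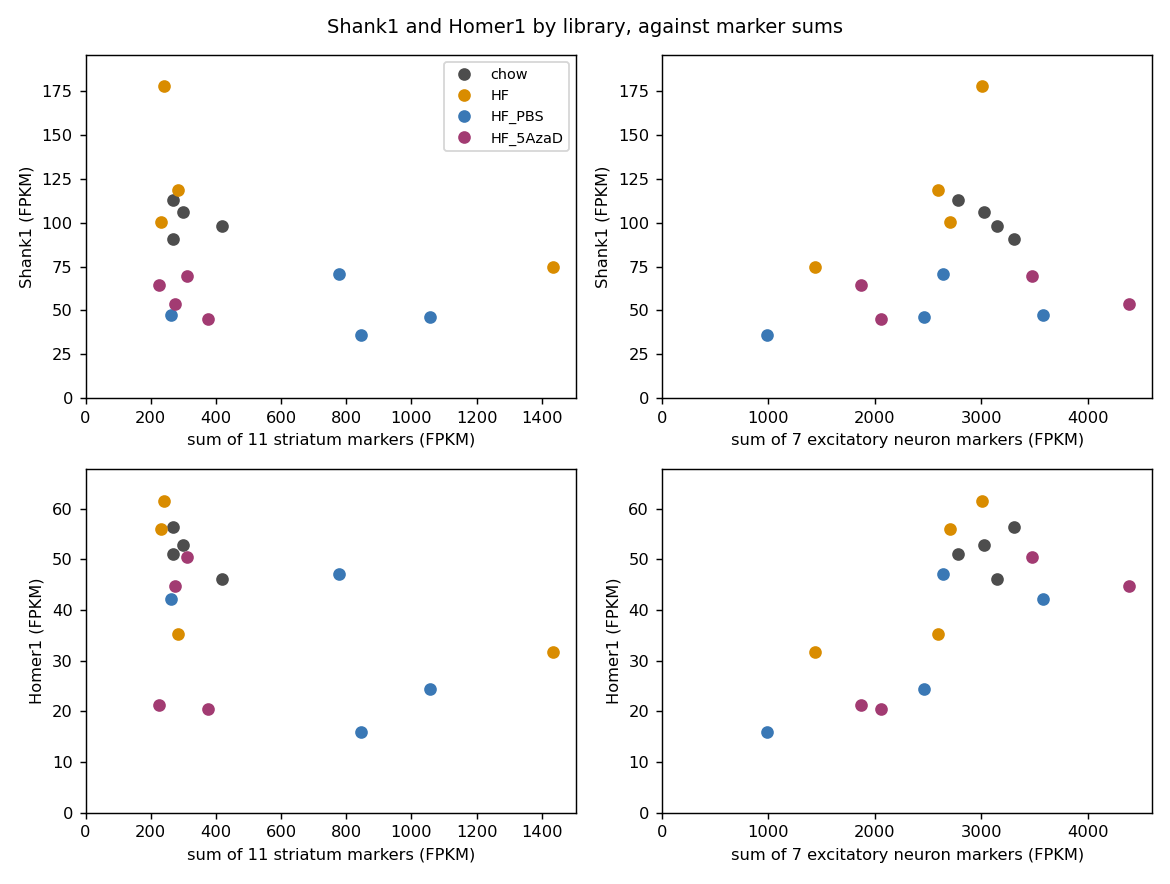
Shank1 (top) and Homer1 (bottom) in FPKM against the summed FPKM of 11 striatum markers (left) and of 7 excitatory neuron markers (right), with 1 point per library, coloured by group. Injected libraries with low striatum sums (HF_PBS 1 and all 4 HF_5AzaD libraries) have Shank1 at 45.1 to 69.5 FPKM, under the uninjected libraries at 74.9 to 178. The uninjected library at 74.9 is HF 8, which has the highest striatum sum, 1434. The part of striatum content in these values was not tested.

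Homer1a belongs to the genes that neuronal activity induces. The 15 tested immediate early genes had a median difference of 0.67 in HF_PBS against HF with none called, and Egr3 was called lower in HF_PBS against chow (57.8 to 28.6 FPKM, adjusted p = 0.0145) and in HF_5AzaD against chow (adjusted p = 0.0419). Their sums were 344 to 692 FPKM in chow, 241 to 585 in HF, 328 to 581 in HF_PBS and 264 to 614 in HF_5AzaD, and overlapped in all 4 groups.

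Genes that span more of the genome were called lower more often in these comparisons. With 9297 of 10216 single symbols (91.0%) matched to RefSeq and split into 5 equal groups from short to long, 3.44%, 8.82%, 11.5%, 15.8% and 18.4% were called lower in HF_PBS against HF, and the medians ran from 0.20 to -0.15. Shank1 and Shank3 are in the fourth of these groups, Shank2, Homer1, Homer2, Dlg2 and Dlgap1 in the longest, Dlg4 in the middle one and Homer3 in the second. All 3 Shank differences lie under the medians of their groups, but these genes were chosen with those values known, so this says nothing about span. The part of span in them was not tested.

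The loci most like Shank1 over the 16 libraries, by Pearson correlation of log2(FPKM + 0.5), included Rnf44 (0.982), Dvl3 of the Wnt pathway (0.971), the endocytic scaffold gene Itsn1 (0.969) and the kinase gene Ttbk1 (0.967). These values describe libraries that differ in group, depth and cell makeup. With the group means removed, the same correlations were 0.97, 0.941, 0.904 and 0.921. The parts of depth and cell makeup in them were not tested. Rnf44 was at 44.6, 46.0, 33.2 and 34.4 FPKM in chow, HF, HF_PBS and HF_5AzaD. For Dlg4 they included Shank1 (0.938), Rap1gap2 (0.924) and the spinophilin gene Ppp1r9b (0.920). For Homer1 the list was a different one: Fam212b (0.948), Srpk2 (0.947), Arhgap10 (0.945), a locus of Inpp5k and Pitpna (0.941) and the transcription factor gene Etv5 (0.939). None of these 5 was called in HF_PBS against HF (adjusted p from 0.218 to 0.634).

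Other genes of the postsynapse were taken from lists chosen with earlier results of these data known. Of 22 tested genes for other postsynaptic scaffolds, 10 were called lower and 1 higher in HF_PBS against HF, with a median of -0.39, beside 13.2% of all loci lower and 10.7% higher. In HF_5AzaD against chow 2 were called lower and 0 higher, with a median of -0.22, a share near the 9.11% of all loci called lower. Cask, a relative of PSD-95 with a kinase-like domain, fell from 6.13 to 1.99 FPKM in the first (log2 difference -1.38, adjusted p = 0.0026) and from 5.28 to 2.04 in the second (-1.22, adjusted p = 0.00858). Magi2 was lower in HF_5AzaD than in chow (30.5 to 15.7 FPKM, adjusted p = 0.0189). Dlgap3, the family member best known from striatum, fell from 117 to 77.4 FPKM in HF_PBS against HF (adjusted p = 0.0191). Sharpin, whose protein binds Shank, was the 1 called higher in HF_PBS against HF, at 21.9 and 27.7 FPKM in HF and HF_PBS (0.34, adjusted p = 0.00817).

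Glutamate receptors and adhesion proteins held at the density had 19 tested genes, of which 4 were called lower in HF_PBS against HF (13.2% of all loci) and 2 in HF_5AzaD against chow, the latter a share near the 9.11% of all loci. Grin2b, an NMDA receptor subunit that binds PSD-95, was at 23.8 FPKM in HF and 12.2 in HF_PBS (-0.97, adjusted p = 0.0173). The neuroligin gene Nlgn3 was at 38.2 and 21.6 (adjusted p = 0.00994). Cacng2, encoding the AMPA receptor partner stargazin, was called in HF_5AzaD against chow (39.3 to 18.2 FPKM, adjusted p = 0.0365). Gria4 was the 1 of 19 called higher in HF_5AzaD against HF (28.7 to 39.9 FPKM, adjusted p = 0.0322), beside 6.61% of all loci. In chow Gria4 was at 41.8 FPKM.

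Among 15 tested spine signalling and actin partners, 7 were called lower and 1 higher in HF_PBS against HF, beside 13.2% and 10.7% of all loci. Camk2a, the main kinase of the density, fell from 1583 to 714 FPKM (-1.17, adjusted p = 0.00813). Baiap2, whose protein binds both Shank and PSD-95, fell from 66.8 to 38.3 (adjusted p = 0.0122). Abi2, of the actin-branching WAVE complex, was higher in both injected groups, at 60.2 FPKM in HF, 90.5 in HF_PBS and 89.7 in HF_5AzaD (adjusted p = 0.0161 and 0.0256 against HF). In HF_5AzaD against chow 1 of the 15 was called lower, Kalrn (adjusted p = 0.0381), a share under the 9.11% of all loci, and 2 higher, Abi2 and Dbn1, beside 7.18%.

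PSD-95 is anchored by palmitoylation. Of 9 genes of that cycle, 4 were called lower in HF_5AzaD against chow (9.11% of all loci) and 4 in HF_PBS against chow (15.7%). In both cases these were the acyltransferase genes Zdhhc3, Zdhhc5, Zdhhc8 and Zdhhc17. Against HF, 2 of the 9 were called lower in HF_PBS (13.2% of all loci) and 0 in HF_5AzaD (7.64%). In HF against chow, 7 of the 9 differences were below 0, with a median of -0.15 and none called. Zdhhc8 was at 38.9 FPKM in chow, 16.7 in HF_PBS and 21.9 in HF_5AzaD (adjusted p = 0.00295 and 0.0218). Fam108c1, of the family that removes palmitate, was called higher in HF_5AzaD against chow (12.7 to 17.2 FPKM, adjusted p = 0.0454).

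Lower calls were not limited to excitatory scaffolds. Of 13 genes for inhibitory postsynaptic scaffolds and receptors, 6 were called lower in HF_PBS against HF and 4 in HF_5AzaD against chow, beside 13.2% and 9.11% of all loci. Lhfpl4, which couples GABA-A receptors to neuroligin 2, was at 45.0 FPKM in HF and 27.1 in HF_PBS (adjusted p = 0.00216), and Nlgn2, which the receptor and adhesion list also holds, at 73.1 and 47.3 (adjusted p = 0.0043). Of 16 presynaptic active zone genes, 6 were called lower in HF_PBS against HF and 3 in HF_5AzaD against chow, beside the same shares of all loci. Unc13a, a vesicle priming factor, was at 49.6 FPKM in HF, 19.3 in HF_PBS and 26.7 in HF_5AzaD (adjusted p = 0.00291 and 0.0268). Whether these lists differ from the 9 scaffold genes was not tested.

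**Figure D5:**
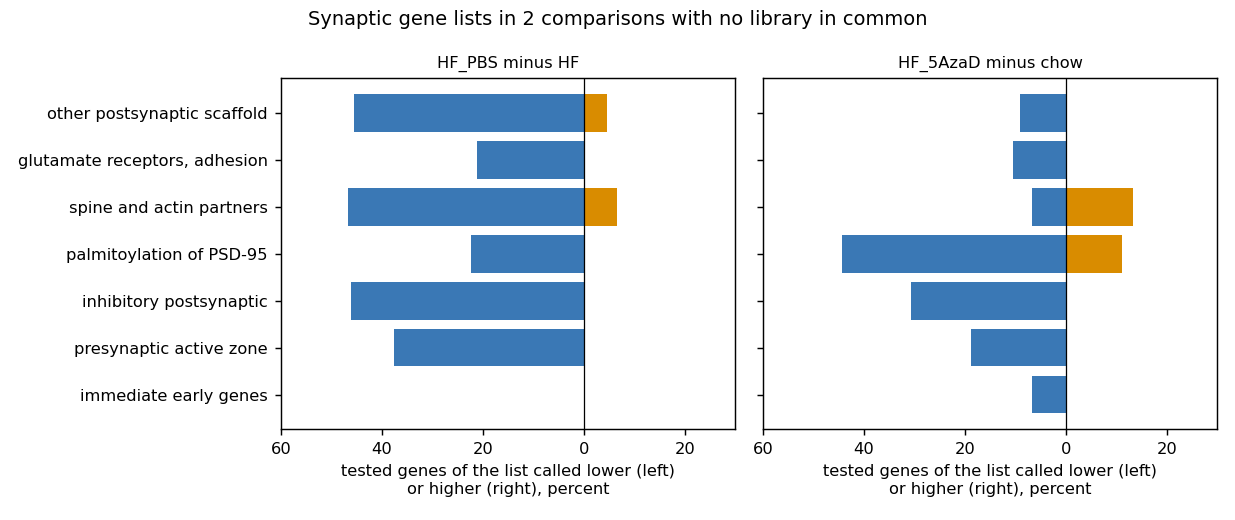
Percent of the tested genes of each of 7 lists that were called lower (bars to the left) or higher (bars to the right), in HF_PBS minus HF and HF_5AzaD minus chow, which share no library. In the first, 10 of 22 other postsynaptic scaffold genes, 6 of 13 inhibitory and 6 of 16 presynaptic genes were lower, beside 13.2% of all loci; in the second, 2, 4 and 3 were, beside 9.11%.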

How the data were processed

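Poly-A RNA of 16 frontal cortex samples was read on an Illumina HiSeq instrument from randomly primed cDNA, per the labels' protocols. Whether strand was kept is not stated, and reads of antisense or overlapping genes may count for a gene. The authors deposited FPKM for merged loci, 1 value and 1 status per sample. The submitters' processing notes list Cufflinks and Cuffdiff, TopHat and TopHat2, Bowtie and Bowtie2, and build rn5, with neither versions nor roles. The table held 0 per-sample columns of other series, and no 2 of the 16 libraries were identical.

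Tested were the 14824 loci that average 1 FPKM or more and have status OK in every sample (161 loci had another status) with limma 3.58.1 (mean-dependent prior, R 4.3.3) on log2(FPKM + 0.5), with 4 group means, 12 residual degrees of freedom and 6 contrasts. Fold changes are on that scale, which understates changes of low genes. Tables and plots used Python 3.11.15, numpy 2.4.6, pandas 2.3.3 and matplotlib 3.10.9. The fit was also run on simulated data in which each locus varied independently. That run does not cover loci that vary together, as they do in these libraries.

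The 9 members and all 16 gene lists were chosen with earlier results of these data known. Named are all members; from each list at most 4 called genes per direction and comparison with the lowest p, or 2 where none was called; and the 5 loci most like Shank1, Homer1 and Dlg4. Of the named list genes, the text gives a selection made after their values were seen. Some genes that this rule names are not reported here. Alternatives were other pseudocounts, filters and scalings, a fit on 2 groups, a replicate block, and leaving out libraries. FPKM steps give relative depth only.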

Additional observations from a re-analysis of the deposited data

Results flagged for a closer look

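Dlg2 in HF_5AzaD 5 was at 72.45 FPKM, far from the other 3 libraries of its group, which were at 45.2 to 49.2 FPKM. Its gap to the nearest of them was 0.854 of the group's range, above Dixon's 95% critical ratio for 4 samples. It was the only one of 36 sets of 4 libraries (9 genes in 4 groups) that stood out in this way, and chance gives about 1 in 20. Without that library the Dlg2 difference in HF_5AzaD against chow was -0.49 (limma, adjusted p = 0.047) in place of -0.34 (adjusted p = 0.163).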

How the results depend on the processing

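Adding 0.1 or 1 FPKM in place of 0.5 and other filters changed no count of calls by over 1.5 times. With only the 2 groups of a comparison in the fit, 1433 loci were called in HF_PBS against HF, and in HF_5AzaD against HF 27 loci and 0 members (3536 and 2112 loci in all 4 groups). Without the 3 libraries richest in striatum markers, HF_PBS against HF called 7 loci and 0 members and HF_PBS against chow 3 loci and 0 members, and without 4 such libraries 0 and 2 loci and 0 members in either; the HF_PBS group then has 2 and 1 libraries. Members that were not called turned sign: Shank3 in HF against chow was at 0.013 after upper quartile scaling, 0.019 after quantile normalization and 0.063 without the striatum-rich libraries. In HF_5AzaD against HF_PBS, without 3 of these, Shank1 was at -0.0080, Homer1 at -0.49, Dlg2 at -0.090 and Dlgap1 at -0.21, and without 4, Homer1 at -0.42, Homer3 at 0.14 and Dlgap1 at -0.15. Homer3 in HF_PBS against chow was at -0.19 and -0.38. The cause was not tested.

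The samples share replicate numbers only: same-numbered libraries had correlations of their deviations from -0.164 to 0.0236 in HF_PBS and chow and from -0.107 to 0.0641 in HF_5AzaD and HF, and 0 matched its own number best. With the replicate block, HF_PBS against chow called 2331 loci and 3 members, and HF_5AzaD against HF, over the 3 shared numbers, 0 loci and 0 members. Other groups share fewer numbers, and no block was fitted for them.

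Leaving out 1 library at a time gave these ranges. Loci called ran from 1633 to 4036 in HF_PBS against HF, 2013 to 4629 in HF_PBS against chow, 399 to 2906 in HF_5AzaD against chow, 395 to 2306 in HF_5AzaD against HF and 0 to 1 in HF_5AzaD against HF_PBS. Members called ran from 5 to 6, 3 to 6, 0 to 4 and 1 to 5 in the first 4 of these. Members that were not called changed sign in these comparisons. In HF against chow they ran from -0.077 to 0.34 for Shank1, -0.065 to 0.45 for Shank2, -0.17 to 0.11 for Shank3 and -0.045 to 0.21 for Homer3. In HF_5AzaD against HF_PBS the ranges were -0.013 to 0.31 for Shank2, -0.13 to 0.13 for Shank3, -0.21 to 0.30 for Homer1, -0.025 to 0.24 for Homer2 and -0.065 to 0.18 for Dlg2. Homer3 ran from -0.20 to 0.067 in HF_PBS against HF and from -0.10 to 0.16 against chow.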
